A study of Mus musculus with 12 samples.

Results

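A set of 29284 distal regions was open in untreated 4T1 mammary carcinoma cells and had no peak in B16F10 melanoma cells. The assay was ATAC-seq, which tags accessible DNA with a transposase and sequences the tagged fragments, and the regions are called carcinoma-only distal regions below. Peaks of 12 libraries on the 19 autosomes and X were merged into 179441 regions wherever they overlapped by at least 1 bp. The 29284 were selected on measured values: a peak with a fold enrichment of at least 5 over the local background in 3 of 3 untreated 4T1 libraries, and no peak in any of 6 B16F10 libraries. They also lay more than 1000 bp from the 5′ end of every protein-coding gene. They made up 57.5% of the 50944 distal regions that reached a fold enrichment of 5 in all 3 untreated 4T1 libraries. Their openness in untreated 4T1 cells and its lack in B16F10 cells are therefore the choice itself and not a result.

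The study held 4 groups of 3 libraries: untreated 4T1, 4T1 with 1 µM decitabine (DAC) for 48 h, untreated B16F10, and B16F10 with 0.1 µM DAC for 48 h. Both lines were cultured alone, without a host animal, and dead cells were removed before transposition. The labels give no genotype for either line and do not say that replicates were separate cultures, so a p-value here speaks to variation among libraries, possibly technical, and not among cultures. The 4T1 lists were longer, with 89727 to 94174 peaks in untreated and 107938 to 118438 in DAC libraries, against 49602 to 58443 in B16F10. The lists hold no read counts, so depth is unknown, and a missing B16F10 peak means only that none was called. With the same number of peaks in every library, 19605 regions met the rule. The share of strong distal 4T1 regions without a B16F10 peak was 64% where the lowest control fold enrichment was 5 to 6 and 57.5% where it was at least 15. A lack of B16F10 peaks was thus not limited to weak regions.

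Distal open regions are mostly enhancers and insulators. Enhancers are short stretches that bind several transcription factors and act on promoters that may lie far away, and which enhancers are open differs more between cell types than which promoters are. AP-1 is a family of dimers of FOS, JUN and related proteins that binds TGAGTCA or TGACTCA and recruits chromatin remodellers. CTCF is the factor that marks insulators and the borders of chromatin loops in most cell types. DAC is built into DNA during replication and traps the enzymes that methylate cytosine at CpG sites.

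The sequences of 14 regions show what follows. Each window is centred on the strongest summit of the untreated libraries and was read from the plus strand of GRCm38 (mm10), and capitals mark TGAGTCA or TGACTCA (AP-1), GGAATGT or its reverse complement (TEAD), and TGTGGTT or its reverse complement (RUNX). The first 3 carry a pair of AP-1 motifs and were the strongest such regions outside annotated exons. They were chosen after their values were seen.
Papss1, 23.3 kb from its 5′ end, chr3:131541367-131541567: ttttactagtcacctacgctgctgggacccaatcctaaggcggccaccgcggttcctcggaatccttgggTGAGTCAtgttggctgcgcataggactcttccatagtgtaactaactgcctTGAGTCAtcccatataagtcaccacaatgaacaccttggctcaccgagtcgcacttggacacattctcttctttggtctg
Foxl1, 59.9 kb from its 5′ end, chr8:121187757-121187957: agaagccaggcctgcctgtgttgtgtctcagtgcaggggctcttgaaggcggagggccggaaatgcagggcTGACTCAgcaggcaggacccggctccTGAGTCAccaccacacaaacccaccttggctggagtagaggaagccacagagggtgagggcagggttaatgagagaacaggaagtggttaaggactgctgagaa
Ccdc6, 319.8 kb from its 5′ end, chr10:69777222-69777422: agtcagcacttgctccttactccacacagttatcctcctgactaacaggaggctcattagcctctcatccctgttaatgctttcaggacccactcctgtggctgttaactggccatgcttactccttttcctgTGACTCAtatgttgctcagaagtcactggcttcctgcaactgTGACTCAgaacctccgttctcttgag
The next 4 are the strongest regions nearest to Sox9, Runx1, Klf4 and Klf5, transcription factors of epithelia, of which those near Runx1 and Klf4 hold 1 AP-1 motif each.
Sox9, 292.3 kb, chr11:113074419-113074619: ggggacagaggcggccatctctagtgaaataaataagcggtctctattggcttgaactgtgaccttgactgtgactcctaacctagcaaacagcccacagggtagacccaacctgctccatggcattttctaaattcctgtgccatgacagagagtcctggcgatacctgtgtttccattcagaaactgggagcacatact
Runx1, 77.9 kb, chr16:92903981-92904181: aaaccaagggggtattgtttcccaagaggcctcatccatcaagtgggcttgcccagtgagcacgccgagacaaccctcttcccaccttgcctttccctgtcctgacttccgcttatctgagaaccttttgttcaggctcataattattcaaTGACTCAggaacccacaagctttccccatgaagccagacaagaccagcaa
Klf4, 126.6 kb, chr4:55659006-55659206: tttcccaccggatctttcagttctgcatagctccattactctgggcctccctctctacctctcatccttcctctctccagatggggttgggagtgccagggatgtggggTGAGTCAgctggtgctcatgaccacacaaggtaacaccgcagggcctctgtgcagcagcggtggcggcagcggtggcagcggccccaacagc
Klf5, 237.2 kb, chr14:99535826-99536026: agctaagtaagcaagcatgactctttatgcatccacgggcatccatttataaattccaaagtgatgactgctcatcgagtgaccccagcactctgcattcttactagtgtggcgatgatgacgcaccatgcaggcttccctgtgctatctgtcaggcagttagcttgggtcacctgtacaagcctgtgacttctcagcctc
The next 3 are the regions of highest rank outside exons. The rank is the lowest of the 3 untreated libraries' percentiles of −log10 q, the peak's significance within its own list. Of these, the region by Ubash3b holds an AP-1 motif.
Ndufb9, 64.3 kb, chr15:58997996-58998196: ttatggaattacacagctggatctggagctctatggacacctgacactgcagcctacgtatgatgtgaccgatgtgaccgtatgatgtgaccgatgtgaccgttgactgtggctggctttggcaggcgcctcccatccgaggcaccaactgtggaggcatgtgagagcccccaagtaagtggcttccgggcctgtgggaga
Ubash3b, 353.7 kb, chr9:41515299-41515499: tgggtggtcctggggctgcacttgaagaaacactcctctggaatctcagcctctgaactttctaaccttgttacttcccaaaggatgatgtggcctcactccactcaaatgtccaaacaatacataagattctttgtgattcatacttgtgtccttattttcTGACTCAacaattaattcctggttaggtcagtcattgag
Supt3, 276.7 kb, chr17:44500365-44500565: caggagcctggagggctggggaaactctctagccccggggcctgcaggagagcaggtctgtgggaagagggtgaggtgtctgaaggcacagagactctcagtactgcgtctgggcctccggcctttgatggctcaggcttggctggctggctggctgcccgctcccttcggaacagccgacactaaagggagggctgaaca
The next 3 are the highest-ranked regions that had no peak in any DAC library. None of them holds an AP-1 motif, and the 1 in Entpd3 holds a RUNX motif.
Anapc1, 28.8 kb, chr2:128658464-128658664: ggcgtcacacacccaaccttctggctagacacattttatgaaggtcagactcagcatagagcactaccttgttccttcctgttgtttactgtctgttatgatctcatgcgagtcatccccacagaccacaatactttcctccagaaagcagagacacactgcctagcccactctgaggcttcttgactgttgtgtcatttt
Entpd3, 5.73 kb, chr9:120545445-120545645: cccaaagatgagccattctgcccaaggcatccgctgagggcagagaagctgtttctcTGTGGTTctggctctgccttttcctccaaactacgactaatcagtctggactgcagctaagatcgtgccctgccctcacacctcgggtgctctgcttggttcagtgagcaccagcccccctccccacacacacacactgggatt
Chd7, 105.5 kb, chr4:8795763-8795963: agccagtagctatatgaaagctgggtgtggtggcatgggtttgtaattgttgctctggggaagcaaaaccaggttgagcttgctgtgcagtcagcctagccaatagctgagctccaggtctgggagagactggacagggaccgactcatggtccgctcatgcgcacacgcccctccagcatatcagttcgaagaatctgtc
The last is 1 of the 4 regions with the largest rise in percentile after DAC, and it holds 1 AP-1 motif.
Kif26b, 461.3 kb, chr1:178990288-178990488: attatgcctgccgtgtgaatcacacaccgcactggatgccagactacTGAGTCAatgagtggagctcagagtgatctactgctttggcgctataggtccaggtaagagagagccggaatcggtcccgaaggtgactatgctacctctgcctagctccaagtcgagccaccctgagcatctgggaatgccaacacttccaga

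Of 23 motifs searched on either strand, within 200 bp centred on the strongest summit, AP-1 was the most common. It occurred in 15814 carcinoma-only regions, or 54%. The share was 17.0% in the 14031 distal 4T1 regions that were strong in the same way and had a peak in 3 of 3 untreated B16F10 libraries, called shared regions below. It was 3.13% in 8800 melanoma-only distal regions, chosen by the mirrored rule, and 22.7% over all 179441 merged regions. Windows 2000 bp beside the carcinoma-only summits, which serve as local background, held it in 3.59%. No sequence was used in the choice of any of these sets, and regions are not replicates, so the shares are given as a description without a test.

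A count of every 7-base word, with no motif named beforehand, gave the same order. TGACTCA, counted together with its reverse complement TGAGTCA, had the largest excess in carcinoma-only over shared regions among all such words. The next words overlapped it, such as ATGACTC at 22.0% against 6.44%. Words that differ from the motif by a base followed, with TGACTAA at 14% against 4.30% and TGAATCA at 12.7% against 4.13%. A second AP-1 motif in the window was found in 2228 regions, or 7.61%.

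The motif lay close to the summit. Its centre fell within 30 bp of the summit in 30.4% of carcinoma-only, 8.21% of shared and 1.06% of melanoma-only regions. In bins of 20 bp, 11.2% and 11.7% of carcinoma-only regions had it in the bins on either side of the summit and 8.24% in the bin at the summit itself. The same dip stood in the shared regions, at 3.39% and 3.03% beside 1.89%. At 60 bp to either side the shares were 4.32% and 4.78% in carcinoma-only and 1.55% and 1.58% in shared regions.

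**Figure D1:**
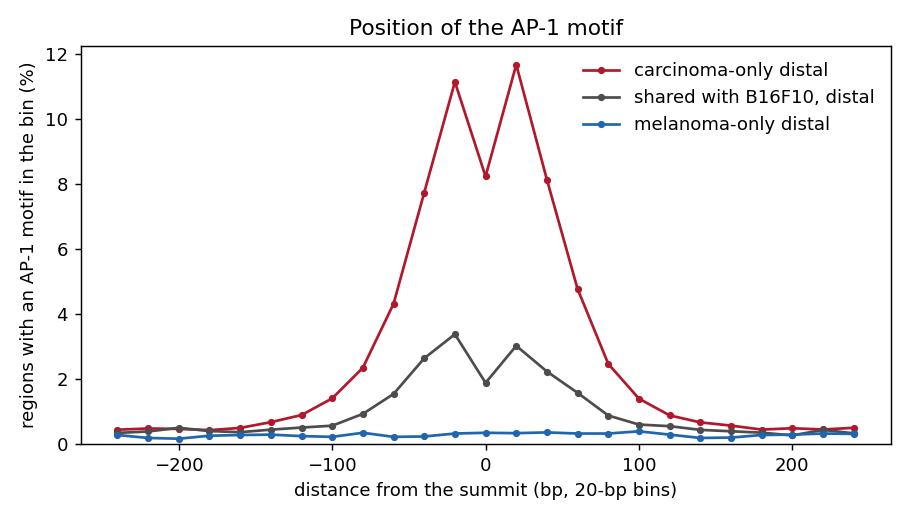
Share of regions (%) with an AP-1 motif centred in each 20-bp bin, by distance from the summit (bp), for carcinoma-only, shared and melanoma-only distal regions. The carcinoma-only line peaks at 11.2% and 11.7% on either side of the summit with 8.24% at the summit, and the melanoma-only line stays near 0.3%.

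Other motifs separated the sets less or in another direction. CTCF's motif was found in 0.652% of carcinoma-only and 17.1% of shared regions. RUNX factors, which act in epithelial and blood cells, had a motif in 10.5% of carcinoma-only, 6.49% of shared and 4.72% of melanoma-only regions, with 4.78% in the flanks. TEAD factors, the DNA-binding partners of YAP and TAZ, had one in 7%, 4.88% and 6.47%, with 2.81% in the flanks. The SOX motif (ACAAAGG or ACAATGG), which SOX10 of melanocytes binds, was found in 23.7% of melanoma-only regions, 7.47% of carcinoma-only regions and 7.26% of the flanks. The motif of GRHL factors, which open epithelial enhancers, AACNNGTT, was at 3.43% in carcinoma-only regions against 3.06% in their flanks. The ELF/EHF motif CAGGAAGT stood at 3.72% against 1.55% in the flanks and 5.10% in melanoma-only regions. A motif for TEAD or RUNX was less frequent where AP-1 was present: TEAD in 5.29% of regions with and 9.02% of those without AP-1, and RUNX in 8.25% and 13.1%.

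**Figure D2:**
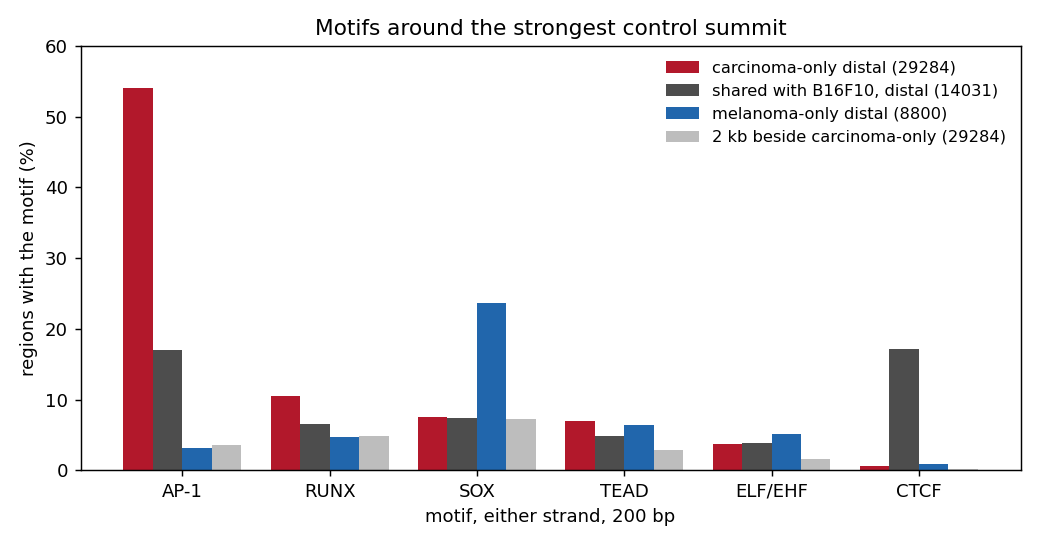
Share of regions (%) that hold each of 6 motifs in 200 bp around the summit, for carcinoma-only, shared and melanoma-only distal regions and for windows 2000 bp beside the carcinoma-only summits. AP-1 stands at 54% in carcinoma-only regions against 17.0% in shared ones, CTCF at 17.1% in shared regions, and SOX at 23.7% in melanoma-only regions.

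Carcinoma-only regions were poorer in CpG than shared ones, with a mean of 1.38 CpG per 100 bp against 2.38, and 0.986 in the flanks. Repeat-masked bases made up 13.3% of their windows and 27.4% of the flanks. Their strength went with the motif: the median fold enrichment in the 3 untreated libraries was 9.81, 9.96 and 9.88 without an AP-1 motif, 11.2, 11.3 and 11.2 with 1, and 13.5, 13.6 and 13.4 with 2 or more. These medians describe values that also chose the regions.

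The regions lay far from genes. The summit was in an intron of a protein-coding gene in 43.9%, in an exon in 4.22%, in another annotated gene in 8.23% and outside genes in 43.6%. The median distance to the nearest protein-coding 5′ end was 43.7 kb, against 24.0 kb for shared and 44.7 kb for melanoma-only regions, and 46.1% lay over 50 kb away. The rule used gene starts alone, and 8.13% of the carcinoma-only regions were within 1000 bp of another annotated transcript start, against 19% of shared ones. Without them 26902 regions remained, of which 54.6% held an AP-1 motif. A B16F10 summit lay within 1000 bp of 5.85% of the carcinoma-only regions and the median distance to one was 8.36 kb.

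They also lay near each other. Another carcinoma-only region was within 12.5 kb of 45.4% of them, but they were denser on the genome than shared regions, of which 29.7% had another shared region that near. Steps of at most 12.5 kb joined 1067 of them into 192 chains of 5 or more. The same steps joined 93 shared regions into 16 chains, of which the longest held 12. The longest carcinoma-only chains held 9 regions each: 61.2 kb on chromosome 5 beside Tmprss11e, a membrane serine protease gene of surface epithelia, 46.0 kb on chromosome 8 in Inpp4b, a phosphoinositide phosphatase gene, and 68.3 kb on chromosome 14 beside Tnfsf11. Tnfsf11 encodes RANKL, the osteoclast and mammary growth signal. Peaks in 3 of 3 DAC libraries were found in 8, 9 and 9 of their regions. By chromosome, the share of strong distal regions that were carcinoma-only ranged from 48.5% on chromosome 11 to 67.8% on chromosome 13.

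The identity of the lines was checked by promoter peaks, meaning a peak no more than 1000 bp from a gene's 5′ end. This is the outermost annotated start of the gene, and its other transcript starts were not counted. A gene without a promoter peak here may thus be open at another start. Of 48 genes of epithelial junctions and surface, 39 had a promoter peak in each untreated 4T1 library and 9 or 10 in each untreated B16F10 library. Of 16 keratin genes, the counts were 10 and 1. Of 22 melanocyte genes, 5 had one in each untreated 4T1 library and 17 in each untreated B16F10 library. Of 24 mammary luminal and secretory genes, 9 or 10 had one in each untreated 4T1 library and 6 in each untreated B16F10 library. This list thus separated the lines less than the epithelial junction, keratin and melanocyte lists. All 12 housekeeping genes had a promoter peak in all 12 libraries. Over all protein-coding genes the shares were 56.6 to 57.1% in untreated 4T1 and 49.8 to 50.2% in untreated B16F10 libraries.

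Each region was assigned to the nearest protein-coding 5′ end, which is a position and not a shown target. At least 1 region was assigned to 9885 of 21755 protein-coding genes, or 45.4%. The 12 genes with most regions had spans of 0.559 to 2.29 Mb, against a median of 0.0721 Mb for the 8123 genes with 1 to 4 regions. Myc, the growth regulator, had 48 over 1.44 Mb, and 10 shared regions. Sox9, a transcription factor of mammary and other progenitors, had 46 over 1.28 Mb and 2 shared regions, and 32 of the 46 held an AP-1 motif. Inhba, which encodes the activin A subunit, had 34, and Klf6, Efna5 and Runx1 had 33 each. Kirrel3, a cell adhesion gene, had 32, Flrt3, another adhesion gene, 31, and Has2, which makes hyaluronan, 29. Adgrl2 had 28, and Efnb2 and Jmjd1c had 27 each. Among these 12 genes the shared regions numbered 0 to 10 each.

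Sox9, Kirrel3 and Efnb2, an ephrin ligand, had a promoter peak in 3 of 3 untreated 4T1 libraries and in 0 of 6 B16F10 libraries. Inhba had one in 3 of 3 untreated 4T1 and in 1 of 6 B16F10 libraries. Myc, Klf6, Efna5, Runx1, Flrt3, Has2, Adgrl2 and Jmjd1c had a promoter peak in every one of the 12 libraries, so at these 8 genes the distal regions differed between the lines while the promoter was called in both.

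Gene lists gave counts that are read against 45.4% of all genes with at least 1 assigned region. Densities are read against 11.1 assigned regions per Mb of the span in which a gene's 5′ end is the nearest. The density of shared regions in the same spans was not worked out. A density above 11.1 is thus not shown to be particular to carcinoma-only regions. The list of epithelial transcription and splicing factors had 23 of 30 genes with a region, 186 regions in all and 25.9 per Mb. After Sox9, Runx1, Klf4 with 22 and Klf5 with 18 came Grhl2, a grainyhead factor of epithelia, with 9. Of the 48 junction and surface genes, 35 had a region, with 23 per Mb. Itgb6, an epithelial integrin subunit, had 11, Itga6 9, Tjp1 8 and Cd24a 6, and Cdh1, which encodes E-cadherin, had 5. Itgb6, Itga6 and Tjp1 had no promoter peak in any of the 12 libraries, while Cd24a and Cdh1 had one in every 4T1 library. Their other transcript starts were not examined. Keratin genes had 10 of 16 and 33.2 per Mb, led by Krt80 with 3, Krt18, Krt23 and Krt19 with 2 each and Krt13, Krt8 and 4 others with 1 each.

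Genes of the AP-1, YAP and TEAD proteins themselves had 19 of 25 and 39.1 per Mb. Jun had 13, Tead1 and Fosl2 12 each, Ccn2 9 and Ccn1 8, the last pair being well-known targets of YAP. Shared regions lay by each of them too, with 2 by Jun, 6 by Tead1, 1 by Fosl2, 2 by Ccn2 and 3 by Ccn1. Of the 12 regions by Fosl2, a FOS family gene, 11 held an AP-1 motif. Cytokine and myeloid factor genes had the highest density of the 14 lists, 44.4 per Mb, with 21 of 26 genes. Ptgs2, the inducible prostaglandin synthase, and Tgfb3 had 7 each, and Il33, Il1b and Tslp had 6 each. Growth factors and receptors had 28 of 30 genes and 14.9 per Mb, led by Nrg1 with 22, Igf1r with 12, Egfr with 10, Met with 9 and Fgf1 and Erbb4 with 8 each.

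Mesenchymal and EMT genes had 20 of 33 and 12 per Mb. Tgfbr2, a TGF-β receptor gene, had 24, Zeb2 21, Fn1 18 and Itgb1 and Col5a1 10 each. Mammary luminal and secretory genes had 11 of 24 and 14.2 per Mb, with Tnfsf11 nearest to 15 of the 33 regions, ahead of Areg and Esr1 with 3 each. Zeb2, a repressor of epithelial genes, had no promoter peak in any 4T1 library and one in 6 of 6 B16F10 libraries. Tnfsf11 and Il1b had no promoter peak in any of the 12 libraries. Nearness alone did not mark a gene as having a peak at its 5′ end in 4T1. Other transcript starts of these genes were not examined.

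Lists of other tissues showed how far such counts go. Melanocyte genes had 14 of 22 but 5.54 per Mb, led by Slc24a5 with 12 and Mitf with 10, followed by Mlph, Trpm1, Ednrb, Oca2 and Pax3 with 2 each. Leukocyte genes had 5 of 16 and 10.7 per Mb, with Ptprc 7, Csf1r 3 and Cd3e, Cd3d and Itgax 1 each. Hepatocyte genes had 2 of 10 and 4.5 per Mb, Apob with 5 and Apoa1 with 4. Fibroblast and endothelial genes had 8 of 11 and 10.4 per Mb, led by Dcn with 10 and Emcn with 6, then Cdh5 and Kdr with 3 and Pdgfra with 2. Neuron genes reached 10 of 12 and 25 per Mb, led by Stmn2 with 14, Snap25 with 8, Nefl and Map2 with 7 and Gad2 with 6. Housekeeping genes had 7 of 12 and 18.3 per Mb, Hprt with 3 and Tbp, Rplp0, Actb, Eef1a1, Pgk1 and Polr2a with 1 each. Of these 6 lists, those of neuron and housekeeping genes lay above the density over all genes and the other 4 below it.

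The promoters of the 9885 neighbouring genes were then compared between the lines. Promoter peaks did not enter the rule, but these genes were reached through regions chosen as open in 4T1 and not called in B16F10. The relabelling below did not choose the regions again, so its p-value is not free of that choice. A promoter peak was present at 63.8%, 64.2% and 64% of them in the untreated 4T1 libraries, against 56.6%, 57.1% and 56.9% of all genes. In untreated B16F10 libraries the shares were 54.4%, 54.0% and 54.4% against 50.1%, 49.8% and 50.2% of all genes. Neighbours thus exceeded all genes by 7.13 ± 0.0230 percentage points in untreated 4T1, 8.53 ± 0.0703 in 4T1 DAC, 4.2 ± 0.0167 in untreated B16F10 and 4.35 ± 0.0741 in B16F10 DAC (SD, n = 3 libraries each). The excess was higher in 4T1 by 3.55 percentage points on average over both arms, and every 4T1 library lay above every B16F10 library (exact two-sided permutation of the line within each arm, p = 0.005, the smallest that 400 relabellings allow). It was 1.93 with equal numbers of peaks per library and 2.26 for the 13826 genes with a region within 50 kb (exact permutation, p = 0.005 each).

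The difference between the lines was larger at genes with more regions. Of 11870 genes with none, 50.7 to 51.2% had a promoter peak in untreated 4T1 and 46.3 to 46.7% in untreated B16F10 libraries. Of 446 genes with 10 or more, the shares were 70.9 to 72.4% and 54.3 to 54.5%. The latter genes also had wider spans, with a median of 0.475 Mb against 0.028 Mb. A promoter peak in all 3 untreated 4T1 libraries and in no B16F10 library was found at 4.82% of genes with none, 8.78% with 1 to 4, 14.4% with 5 to 9 and 16.4% with 10 or more. After Sox9, Kirrel3 and Efnb2 the genes of this kind with most regions included Ets1 with 22, an ETS factor, Irx1 with 21, a homeobox factor, and Nectin1 with 18, an adhesion molecule of epithelia. These were named after their values were seen.

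**Figure D3:**
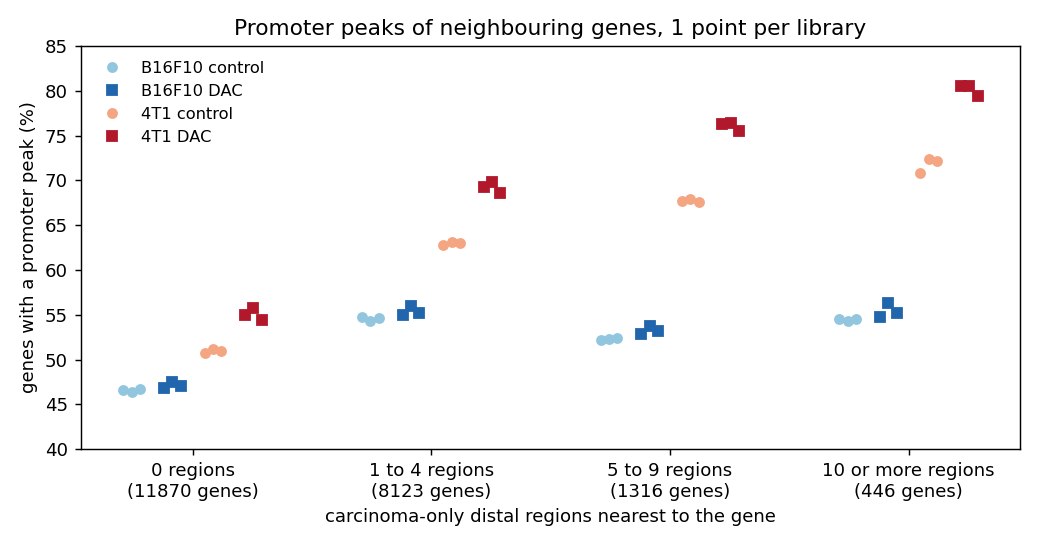
Share of protein-coding genes with a promoter peak (%), 1 point per library, by the number of carcinoma-only distal regions nearest to the gene (axis from 40 to 85%). The untreated 4T1 points rise from about 51% to 70.9 to 72.4% and the untreated B16F10 points from 46.3 to 46.7% to 54.3 to 54.5%.

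Most carcinoma-only regions were still called after DAC. Of the 29284, 25938 (88.6%) had a peak in 3 of 3 DAC libraries, 1280 in 2, 896 in 1 and 1170 (4.00%) in none. Over all 50944 strong distal 4T1 regions, which include them, 90.5% had a peak in 3 DAC libraries and 3.01% in none. Over the shared regions the shares were 94.8% and 1.13%. By library, 92.1%, 94.0% and 91.5% of the carcinoma-only regions had a DAC peak, so the 3 libraries were close together. A fold enrichment of at least 5 in 3 of 3 DAC libraries was kept by 71.6%, against 73.7% of all strong distal and 79.3% of shared regions. This order depended on the minimum: with 10 in place of 5 the shares were 59.5%, 58.7% and 56.2%. Among regions whose lowest untreated value was 5 to 6, 33.9% of carcinoma-only and 27.2% of shared regions kept a fold enrichment of 5. At every higher strength the shared regions stood above. The shares were 51.3% and 53.8% at 6 to 8 and 70.5% and 78.95% at 8 to 10. They were 87.15% and 94.1% at 10 to 15, and 97.5% and 99.4% at 15 or more.

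These shares depended on how peaks were counted. With the same number of peaks in every library, 15% of the carcinoma-only and 10.2% of the shared regions had no DAC peak. With a fold enrichment of at least 10 for the choice, 0.428% and 0.0511% had none. In the reverse reading, regions chosen by the same rule in the 3 DAC libraries had a peak in 3 of 3 untreated libraries in 76.1% and in none in 19.1%. Shared regions chosen that way lacked an untreated peak in 0.615%.

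Because the untreated libraries chose the regions, each untreated library was also left out of the choice in turn and read like a DAC library. The choice still rested on untreated libraries and so favoured the one left out over the DAC libraries. The difference and its p-value are thus not free of the choice. In the reverse reading, 70.3% of regions chosen in the DAC libraries reached a fold enrichment of 5 in 3 of 3 untreated libraries. Regions chosen on the other 2 untreated libraries, between 30289 and 30649 of them, reached a fold enrichment of 5 in 95.8%, 96.7% and 95.5% in the library left out. In the DAC libraries the shares were 74.8%, 76.2% and 74.7%. The means were 96.0 ± 0.592% and 75.2 ± 0.812% (SD, n = 3 each), a difference of −20.8 percentage points with no overlap (exact two-sided permutation, p = 0.1, the smallest that 3 against 3 libraries allow). With a minimum of 10 in place of 5 the difference was −32.4 (exact permutation, p = 0.1). For any peak the means were 99.2 ± 0.381% and 91.5 ± 1.39% (exact permutation, p = 0.1). Shared regions read in the same way went from 98.1 ± 0.291% to 83.6 ± 0.972%. Whether the fall differs between carcinoma-only and shared regions was not tested.

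The median fold enrichment was 10.7, 10.8 and 10.6 in the untreated and 8.12, 8.26 and 8.12 in the DAC libraries. The median percentile of −log10 q within each list went the other way, from 58.4, 60.4 and 59.5 to 63.3, 65.7 and 62.3. In the shared regions, also chosen in the untreated libraries, the medians were 11.5, 11.6 and 11.5 untreated and 8.43, 8.60 and 8.47 with DAC. Lower values were thus not limited to carcinoma-only regions. Over all peaks of a library, 72.9 to 75.7% reached a fold enrichment of 5 in the untreated and 55.7 to 59.6% in the DAC libraries. That share is taken over lists of unlike length, so it does not show lower values at the same regions. The part of the longer DAC lists in these values was not tested. Fold enrichment was lower in every DAC library than in every untreated one in 68.1% of carcinoma-only regions, counting a missing peak as 0, against 70.1% of all strong distal regions. It was higher in every DAC library in 2426 (8.28%), against 7.02% of all strong distal regions. In the shared regions 73.4% were lower and 4.96% higher in this way. The strong distal regions hold 57.5% carcinoma-only regions, so a share over them lies near the carcinoma-only share by construction. Whether the carcinoma-only and shared regions differ was not tested. Fold enrichment is a ratio to the library's own local background, so levels in separate lists are set side by side only as a description.

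The fate followed the strength before treatment. Where the lowest untreated fold enrichment was 5 to 6, 69.7% of carcinoma-only regions had a peak in 3 DAC libraries and 12.7% in none. At 8 to 10 the shares were 89.3% and 3.03%, and at 15 or more they were 99.4% and 0.0448%, which is 3 of 6702 regions. At the same strength shared regions were called more often, with 78.9% and 5.68% at 5 to 6 and 95.2% and 0.553% at 8 to 10.

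Regions with an AP-1 motif were called after DAC more often than those without at each strength. At 5 to 6, 72.5% with and 67.3% without the motif had a peak in 3 DAC libraries, and 11.2% and 14% had none. At 6 to 8 the shares without a DAC peak were 5.57% and 8.35%, and at 8 to 10 they were 2.35% and 3.74%. The direction was the same in each DAC library, for example 19.2% against 23.7%, 16.4% against 19.5% and 20.9% against 25.9% without a peak at 5 to 6. Over all strengths, 39.1% of the 1170 regions without a DAC peak and 55.5% of those with a peak in 3 held the motif. Also over all strengths, the share of regions whose 3 DAC libraries all reached 5 was 64.7% with no AP-1 motif, 75.6% with 1 and 89.5% with 2 or more. Regions with more motifs were stronger before treatment, so these shares are not matched for strength. At the same strength the shares with and without the motif were 39.0% and 29.6% at 5 to 6 and 57.6% and 45.2% at 6 to 8. At 15 or more they were 98.4% and 95.9%.

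**Figure D4:**
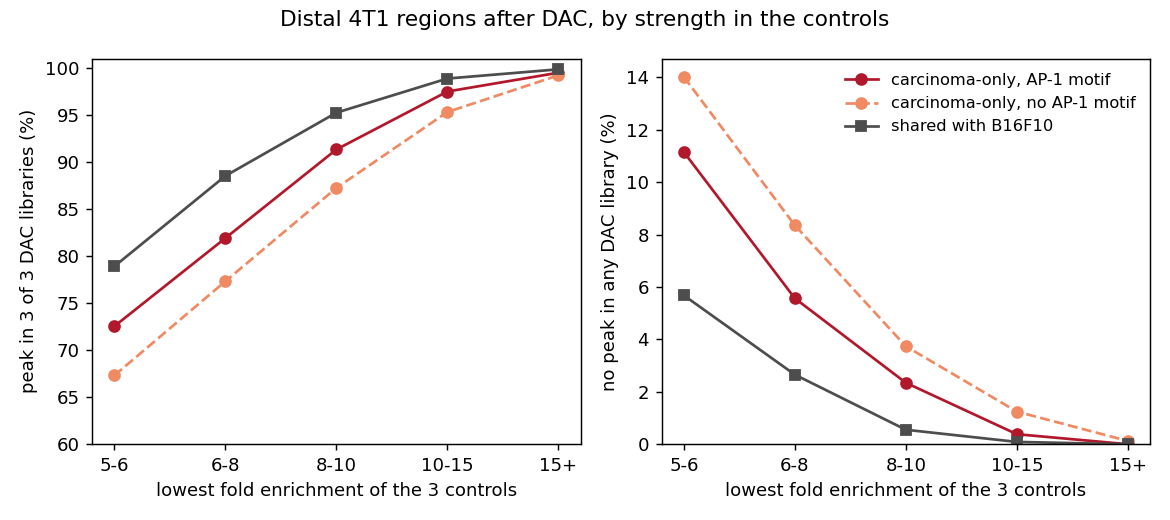
Share of distal 4T1 regions (%) with a peak in 3 of 3 DAC libraries (left, axis from 60%) and with none (right), by the lowest fold enrichment of the 3 untreated libraries, for carcinoma-only regions with and without an AP-1 motif and for shared regions. At 5 to 6 the shares without a DAC peak are 11.2%, 14% and 5.68%, and all 3 lines approach 0 at 15 or more.

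CpG content went with the fate as well. Regions with under 0.5 CpG per 100 bp had a peak in 3 DAC libraries in 84.2% and those with at least 4 in 96.9%, while their untreated medians were alike, at 10.5, 10.6 and 10.4 against 10.7, 10.9 and 10.6. The DAC medians were 7.55, 7.60 and 7.49 in the first and 9.44, 9.32 and 9.26 in the second. The share with higher fold enrichment in every DAC library was 6.78% and 13.9%. AP-1 motifs went the other way, in 57.5% of the first and 22.7% of the second class of CpG content. AP-1 motifs were thus scarcer in the CpG-rich class, which was called after DAC most often.

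All 8 regions of highest rank had a peak in 3 of 3 DAC libraries. The strongest lay in an intron 64.3 kb from the 5′ end of Ndufb9, a respiratory chain subunit gene, at chr15:58997651-58998751, with fold enrichments of 15.3, 15 and 15.1 untreated and 13.9, 13.1 and 14 with DAC. In an exon 5.96 kb from the 5′ end of Tatdn1 the values were 19.8, 19.3 and 19.8 and then 18.6, 17.7 and 18.3. The region by Ubash3b had 17.0, 17.0 and 18.1 and then 16, 16.2 and 16.1. In Supt3, a transcription cofactor gene, they were 16, 16.2 and 16.4 and then 15.1, 14.5 and 15.1. All 4 were lower in each DAC library than in each untreated one.

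The fall was larger by Rsph3a, where chr17:7985409-7986174 stood at 22.9, 22.9 and 23.1 untreated and at 16.7, 17.4 and 17.4 with DAC. By Gm17571 the values overlapped, at 14.1, 14.1 and 14.3 and then 14.5, 15.1 and 14.3. A pair of regions 452.4 and 375.6 kb from Myc, chr15:61531998-61533480 and chr15:61609410-61610036, had 13.4, 13.7 and 13.4 and then 11.2, 11.5 and 11.3, and 13.8, 14.2 and 15 and then 12.6, 11.1 and 12.5. Of the 48 regions assigned to Myc, 44 had a peak in 3 DAC libraries and 0 had none.

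The strongest regions by 4 epithelial factors had a peak in every DAC library. By Sox9 the fold enrichment was 18.9, 18.2 and 18.7 untreated and 17.3, 16.7 and 17.1 with DAC. By Runx1 the values overlapped, at 13.6, 14.3 and 13.5 and then 13.2, 13.6 and 14.4, as they did by Klf4, at 17.8, 18.5 and 18.6 and then 19.7, 17.9 and 20.2. By Klf5 they were 25.1, 24.7 and 27.6 and then 22.8, 24.3 and 24.0.

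The highest-ranked regions without any DAC peak began at middling ranks. In an intron of Anapc1, a subunit gene of the anaphase-promoting complex, chr2:128658301-128658758 had untreated fold enrichments of 17.5, 19.4 and 19.5. In Entpd3, which encodes an ectonucleotidase, chr9:120545227-120545999 had 8.67, 9.25 and 8.98. In Chd7, a chromatin remodeller gene, chr4:8795579-8796420 had 17.8, 19.8 and 16.1. None of the 3 had a peak in any DAC library.

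The other 3 of this kind lay in an exon by Atad1, with 16.2, 16.2 and 16.6, by Tex264, with 5.81, 6.01 and 6.21, and 1243.6 kb from Nr2f1, with 15.6, 14.9 and 19. Their 6 ranks ran from 61.5 to 68.8, although 4 of them had fold enrichments above 14 in each untreated library. Of these 6 regions, 1 held an AP-1 motif, the 1 by Tex264.

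The 4 regions with the largest rise were near the lower bound of the choice. In Maml3, which encodes a NOTCH coactivator, chr3:51991045-51991660 had 5.65, 5.16 and 5.19 untreated and 20.8, 21.8 and 21.8 with DAC. It lay 299 bp from the start of another annotated transcript. By Zc3hav1l the values were 5.65, 5.16 and 5.79 and then 16.2, 18.3 and 17.3. In Kif26b, a kinesin gene, chr1:178989945-178990756 had 7.4, 7 and 6.58 and then 19.2, 20.2 and 21, and it lay 600 bp from such a start. By Sec61a1 they were 7.60, 5.71 and 6.98 and then 20.2, 19.5 and 20.7. Of these 4 regions, those in Maml3, in Kif26b and by Sec61a1 held an AP-1 motif.

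**Figure D5:**
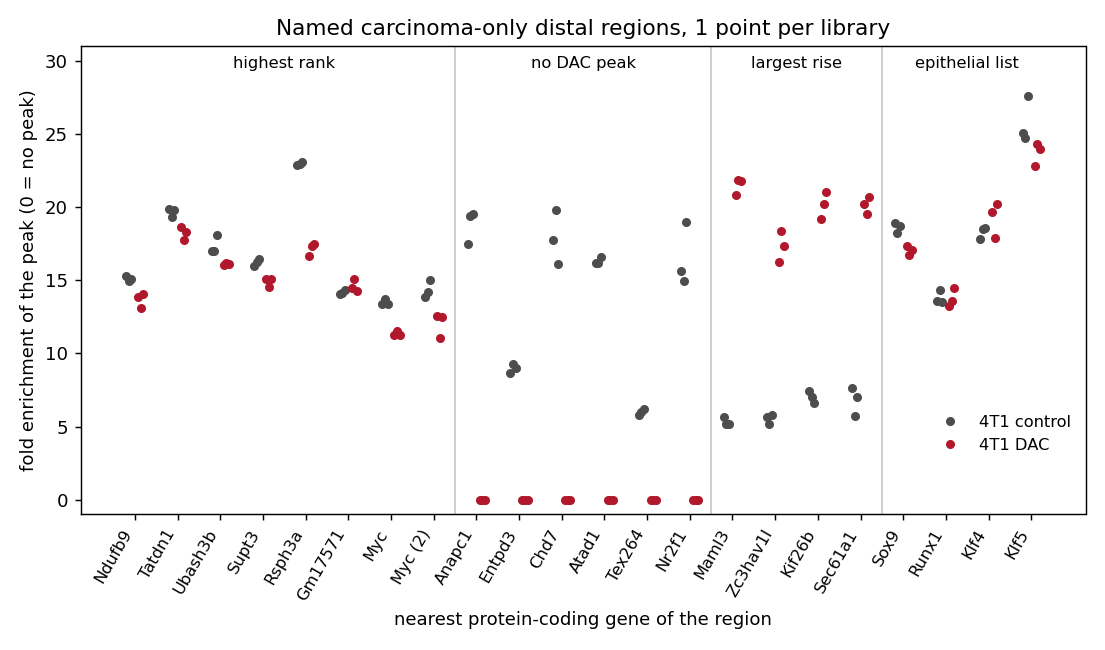
Fold enrichment of each named carcinoma-only region in the 6 4T1 libraries (0 where no peak was called), by nearest gene, in the 4 kinds that named them. Every region of highest rank and by an epithelial factor has a peak in all 6 libraries, the 6 regions without a DAC peak drop from 5.81 to 19.8 to 0, and the 4 with the largest rise climb from 5.16 to 7.60 to 16.2 to 21.8.

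Losses were also counted by gene. The 1170 regions without a DAC peak were assigned to 1020 genes, and for 80.9% of them the same gene had another region with a peak in 3 DAC libraries. Of 446 genes with 10 or more regions, 103 had every region called in 3 DAC libraries and 189 had at least 1 region with no DAC peak. Over all carcinoma-only regions, 88.6% had a peak in 3 DAC libraries and 4.00% in none. How many genes these shares alone would give was not worked out. The counts by gene are thus a description and not a result about these genes. Gm5148 and Zeb2 had 5 regions each without a DAC peak, of 16 and 21. Genes with 4 such regions were 1190002N15Rik and Jcad, of 11 each, Alk, a receptor kinase gene, of 12, Ttll7 of 14 and Efnb2 of 27. Scaper had 3 of 3 and Spred1, an inhibitor of RAS signalling, 3 of 4, and 6 genes with 2 or more regions had no DAC peak at any of them. The genes of this paragraph were named after their values were seen. The promoter had a peak in 3 of 3 libraries of both 4T1 groups at each of them except Zeb2, with none, and Alk, with 0 untreated and 3 DAC libraries.

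In the lists, regions without a DAC peak numbered 4 of 186 among epithelial factors, 3 of 112 among junction and surface genes, 0 of 15 among keratins, 0 of 33 among mammary genes and 0 of 76 among cytokine genes. They numbered 9 of 139 among mesenchymal genes, 5 of 88 among AP-1, YAP and TEAD genes, 6 of 135 among growth factors and receptors and 7 of 54 among neuron genes. Melanocyte genes had 0 of 39, leukocyte genes 1 of 13, fibroblast and endothelial genes 2 of 27, hepatocyte genes 0 of 9 and housekeeping genes 3 of 9. The share over all carcinoma-only regions was 4.00%, and the counts are given without a test. A peak in 3 DAC libraries was found in 88.6% of all carcinoma-only regions. Among the 12 genes with most regions, the counts were 44 of 48 for Myc, 37 of 46 for Sox9 and 31 of 34 for Inhba. Klf6 and Runx1 had 30 of 33 each, Efna5 29 of 33, Kirrel3 26 of 32 and Flrt3 22 of 31. Has2 had 26 of 29, Adgrl2 22 of 28, Efnb2 20 of 27 and Jmjd1c 25 of 27.

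Promoter peaks of the nearest genes were also counted for each fate. A promoter peak in DAC library 1, 2 and 3 was found at the nearest gene of 76.9%, 77.7% and 76.5% of the regions without a DAC peak and of 74.6%, 74.9% and 73.8% of those with a peak in 3. In the untreated libraries the shares were 68.0%, 68.5% and 68.2% against 66.7%, 67.4% and 67.1%. For 80.9% of the regions without a DAC peak, the nearest gene also had a region with a peak in 3 DAC libraries. Most genes behind the first shares thus also entered the second. Whether loss of a distal peak goes with a change at the promoter cannot be read from these shares. X had the highest share of carcinoma-only regions without a DAC peak among the chromosomes, at 6.95%, and chromosome 12 the lowest, at 2.62%.

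The bound of 5 cut through a continuous range. The 2050 regions whose lowest untreated fold enrichment was 5 to 5.5 had a peak in 3 DAC libraries in 69.7% and none in 13.4%. The 2487 regions that met the rest of the rule at 4.5 to 5 had 62.6% and 16.4%.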

How the data were processed

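The submitters' processing notes name the build mm10 and, with no order or role, MACS2, Bowtie2, Picard, FastQC, MultiQC, ChIPseeker and DiffBind. Their versions, options and the model of sequencer used for each library are not given in the sources used here. The deposited peak lists, 1 per library, were called by the authors without pooling and end at a q of 0.05. The fold enrichment of a peak over its local background, its −log10 p and −log10 q, and a score equal to 10 times −log10 q without its decimals are the authors' values as deposited.

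The regions, gene lists and tests were chosen with earlier results of these data known. Peaks were merged over the 12 libraries, and a region took the strongest peak of each library. Genes and 5′ ends came from GENCODE M21 on GRCm38 (mm10), 21755 of them protein-coding. Named genes were the 8 regions of highest rank, the 6 of highest rank without a DAC peak, the 4 with the largest rise, the 12 genes nearest to most regions and up to 5 genes per list, ties by rank. A gene that the rule named is not reported here. A number shared by libraries of different groups did not pair them: deviations of same-numbered untreated and DAC libraries correlated at -0.0047, 0.0099 and 0.0088 over 25938 regions. The 2 tests were exact permutations over libraries. The choice of regions, the held-out share and the motif search were checked on simulated data, and the p-values were not. Python 3.11.15, pandas 2.3.3, NumPy 2.4.6, pysam 0.24.0 and matplotlib 3.10.9 were used. Read counts were not used here, so the precision of a single value is unknown. Alternatives covered the fold minimum, the distance from 5′ ends, equal numbers of peaks, the motif window, the nearest-gene rule and each library left out.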

Additional observations from a re-analysis of the deposited data

How the results depend on the processing

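With a minimum fold enrichment of 10, 14252 regions met the rule, 97.9% had a peak in 3 DAC libraries, 0.428% had none, 59.5% kept the minimum in 3, and 59.46% held an AP-1 motif. The order of carcinoma-only and shared regions in keeping the minimum was then reversed, as shared regions stood at 56.2%. With equal numbers of peaks (49602 per library) the shares were 76.6%, 15.02%, 75.1% and 57.1%. Regions chosen in DAC libraries and read in untreated ones gave 76.1%, 19.05% and 70.3%. AP-1 stood at 41.9% in 100 bp and 61.6% in the whole peak, against 12.1% and 26.7% of shared regions. Leaving out 1 library at a time gave 87.1 to 90.75% with a peak in every DAC library, 3.95 to 5.61% with none, 69.4 to 73.7% strong in every DAC library and 53.5 to 53.9% with AP-1. The number of regions then ran from 29440 to 30649, the held-out difference from −21.3 to −20.2 and the promoter difference from 3.53 to 3.57. With the replicate number as a block, the held-out difference was −20.8 (exact permutation p = 0.25, the smallest possible) and the promoter difference 3.55 (exact permutation p = 0.03125). The number changed no call at 0.05. The distance to every annotated transcript start of any gene type was an alternative chosen after seeing the data. The promoter difference was 1.93 with equal numbers of peaks and 2.26 for genes within 50 kb, and the held-out difference was −7.68 for any peak and −32.4 at a minimum of 10. No alternative run changed the sign of either of these differences. The lack of read counts leaves a missing B16F10 peak without a limit of detection.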

Other observations

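Some carcinoma-only regions lay in stretches without any B16F10 peak. Of 2265 bins of 1 Mb with at least 1 such region, 14 held 5 or more of them and no peak of any of 6 B16F10 libraries, with 161 regions in all. The bin on chromosome 9 from 47000001 to 48000000, around Cadm1, a cell adhesion gene, held 27, and 33, 36 and 35 peaks in the untreated 4T1 libraries. Neighbouring bins on chromosome 13 held 20 by Irx1 and 27 by Irx2, homeobox genes of the same cluster. A bin on X with members of the Magea family held 14. Peaks in DAC libraries were about as many in the first 3 bins, with 34 to 36 by Cadm1, 27 to 29 by Irx1 and 41 to 47 by Irx2. The bin with Ralyl on chromosome 3 had 8, 9 and 10 untreated and 23 in each DAC library. Copy number was not measured here, so deleted DNA and closed chromatin cannot be told apart in these bins.

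The NF-κB motif was found in 0.724% of carcinoma-only regions, 0.506% of shared and 0.102% of melanoma-only regions. Among carcinoma-only regions it was in 0.794% of those with a peak in 3 DAC libraries and in 0.0855% of the 1170 without any. The latter share rests on very few regions. Those without a DAC peak were also weaker before treatment, with a median lowest untreated fold enrichment of 6.175 against 10.58.

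Regions with the highest fold enrichments, named after their values were seen, were narrow. One by Il31ra, an interleukin receptor gene, spanned chr13:112578164-112578337 with values of 44.96, 46.87 and 43.87 untreated and 46.75, 46.11 and 45.97 with DAC. One by Diaph3 lay 942.2 kb from the gene, with 43.73, 46.24 and 44.32 and then 41.14, 42.62 and 42.45. Repeat-masked bases made up 0% of the window by Il31ra and 78% of that by Diaph3.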
